A study of Mus musculus with 9 samples.

Results

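This account covers 5 transcription factors that set and keep intestinal identity, Cdx1, Cdx2, Hnf4a, Hnf4g and Gata6, in mouse colon organoids. The members were taken by gene symbol. All 5 were present, once each, among the 48795 genes of the expression table, and all 5 were among the 12741 genes with a mean normalised count of 10 or more that were tested. RNA-seq was performed on 9 libraries of organoids, which are epithelial cultures grown from colon crypts. Cells were kept in WENR, a medium that supplies Wnt3a and also holds nicotinamide and inhibitors of p38 and of TGF-beta receptors, so that every group was measured under regenerative rather than differentiating conditions. WT organoids came from wild-type littermates, and AHR KO organoids from Vil-Cre Ahr fl/fl mice on a C57BL/6 background, in which the Villin promoter drives Cre and so deletes floxed Ahr in the intestinal epithelium. AHR is the aryl hydrocarbon receptor, a transcription factor that is switched on by ligands such as FICZ. Organoids received DMSO, the solvent, or 5 nM FICZ for 4 h, which gave WT DMSO (n = 2), WT FICZ (n = 3), AHR KO DMSO (n = 2) and AHR KO FICZ (n = 2). The age of the mice was not given in the sources used here.

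CDX2 and CDX1 are caudal-type homeobox proteins. CDX2 is required for the gut epithelium to take an intestinal rather than a gastric or squamous fate, and CDX1 is a close relative that is strongest in crypts and in the colon. HNF4A and HNF4G are orphan nuclear receptors that bind the same DNA element as dimers and drive enterocyte genes such as those of the brush border and of lipid handling. GATA6 is a zinc finger factor of endoderm that is present along the whole gut, including the colon, where its relative GATA4 is normally low.

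The labels were checked first. Ahr itself read 787 and 858 in WT DMSO, 791, 798 and 783 in WT FICZ, 1404 and 1346 in AHR KO DMSO and 1443 and 1387 in AHR KO FICZ. The signal was thus higher, by 0.74 log2 under DMSO (adjusted p = 0.000194), in the libraries labelled AHR KO. A count per gene does not show the loss of an exon, so Ahr does not check the label. The AHR target Cyp1b1 did separate the genotypes, with 1632 and 1078 in WT DMSO against 34.5 and 25.4 in AHR KO DMSO, a log2 change of -5.44. Cyp1a1, the classical AHR target, reached 6987 to 7958 in WT FICZ and 100.3 to 139 in AHR KO FICZ, and did not exceed 5.84 in any DMSO library. A FICZ response of Cyp1a1 was therefore smaller but still measurable in the libraries labelled AHR KO. The mean of Cyp1b1 was 30.0 in AHR KO DMSO and 179 in AHR KO FICZ, against 1355 in WT DMSO and 9906 in WT FICZ. All 7 epithelial markers (Epcam, Cdh1, Krt8, Krt18, Krt19, Vil1 and Cldn7) were tested, with sums of 302612 to 329661 per library. Single markers moved with genotype, since Epcam read 31458 to 35708 in WT and 21237 to 25811 in AHR KO libraries (-0.43 log2 under DMSO, adjusted p = 0.00846, and -0.46 with FICZ, adjusted p = 0.00145), whereas Krt18 read 32288 to 41394 in WT and 44417 to 46810 in AHR KO. Their part in the genotype differences given here was not tested. None of the 8 fibroblast markers or of the 6 endothelial and muscle markers passed the expression filter, and their sums did not exceed 7.82 and 9.67. Of 8 immune markers, Ptprc, Adgre1 and Lyz2 were at 0 in all libraries and Cd68 and Csf1r were tested. The immune sum ranged from 482 to 585 in WT and from 506 to 726 in AHR KO libraries. Nearly all of it was Cd68, at 475 to 573 in WT and 491 to 712 in AHR KO, and Csf1r did not exceed 17.4. Libraries of one group correlated at 0.986 to 0.991 across genes, and libraries of different groups at 0.964 to 0.983. Fewer cells of a type and less RNA per cell cannot be told apart in such bulk samples.

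The sequence just upstream of the starts of Cdx2 and Hnf4a is shown because both genes were called higher with FICZ in WT and lower in AHR KO, and among the members theirs were the RefSeq entries matched. Hnf4a has a pair of promoters, and a count per gene does not separate their transcripts. The windows are the 250 bases before each RefSeq start on GRCm38.p6, read 5′ to 3′ on the strand of the gene, with any match to the letters searched in capitals. The Cdx2 window is chr5:147307250-147307499 on the minus strand. The upstream start of Hnf4a has the window chr2:163506607-163506856 and the downstream start chr2:163546905-163547154, both on the plus strand. The gene positions given below are from GENCODE, where Cdx2 reaches to 147307270 and Hnf4a starts at 163506808. By that annotation the Cdx2 window and the upstream Hnf4a window run into the gene.
Cdx2: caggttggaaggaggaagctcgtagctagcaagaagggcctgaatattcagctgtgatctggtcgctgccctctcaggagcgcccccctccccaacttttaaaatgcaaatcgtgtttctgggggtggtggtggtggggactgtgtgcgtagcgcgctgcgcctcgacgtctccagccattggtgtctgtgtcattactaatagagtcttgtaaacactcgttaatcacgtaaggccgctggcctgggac
Hnf4a, upstream start: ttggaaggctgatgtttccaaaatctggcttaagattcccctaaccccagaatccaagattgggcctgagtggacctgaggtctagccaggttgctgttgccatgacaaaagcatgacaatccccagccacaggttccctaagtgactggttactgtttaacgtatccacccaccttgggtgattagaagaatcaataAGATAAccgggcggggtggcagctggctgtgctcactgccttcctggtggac
Hnf4a, downstream start: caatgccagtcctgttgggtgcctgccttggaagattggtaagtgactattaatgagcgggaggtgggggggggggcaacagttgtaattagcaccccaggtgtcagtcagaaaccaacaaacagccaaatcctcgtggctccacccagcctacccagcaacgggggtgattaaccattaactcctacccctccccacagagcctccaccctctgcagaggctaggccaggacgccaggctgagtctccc
The letters searched on both strands were GCGTG (the core of the AHR element, found in 28.2% of 32851 promoter windows of this length), TTTATNG (CDX, 9.81%), CAAAGTCCA (HNF4, 0.384%) and AGATAA (bound by zinc finger factors of the GATA6 family, 9.99%). The only match in the 3 windows was AGATAA, 52 to 47 bases before the upstream RefSeq start of Hnf4a, on the strand of the gene. It lay across the GENCODE start of that gene. A match or its absence in so short a window is a description of these letters alone.

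The levels of the 5 genes differed widely (the plot of normalised counts by library). Levels of different genes were compared as normalised counts per kb of exonic length. In WT DMSO the order was Hnf4a (2522 per kb), Cdx2 (1712), Cdx1 (1686), Gata6 (157) and Hnf4g (73.5). Per kb of the longest transcript, the order in WT DMSO was the same, but Gata6 was at 270, Hnf4a at 2791 and Hnf4g at 83.0. The ranges of Cdx2 (1611 to 1813 per kb) and Cdx1 (1605 to 1767 per kb) overlapped in that group. In AHR KO DMSO, Cdx2 was at 1271 per kb and Cdx1 at 760 per kb, with no overlap. Hnf4a had the highest and Hnf4g the lowest mean of the 5 in all 4 groups, although Hnf4a (2999 to 3292 per kb) and Cdx2 (2656 to 3269.7 per kb) overlapped in WT FICZ.

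**Figure D1:**
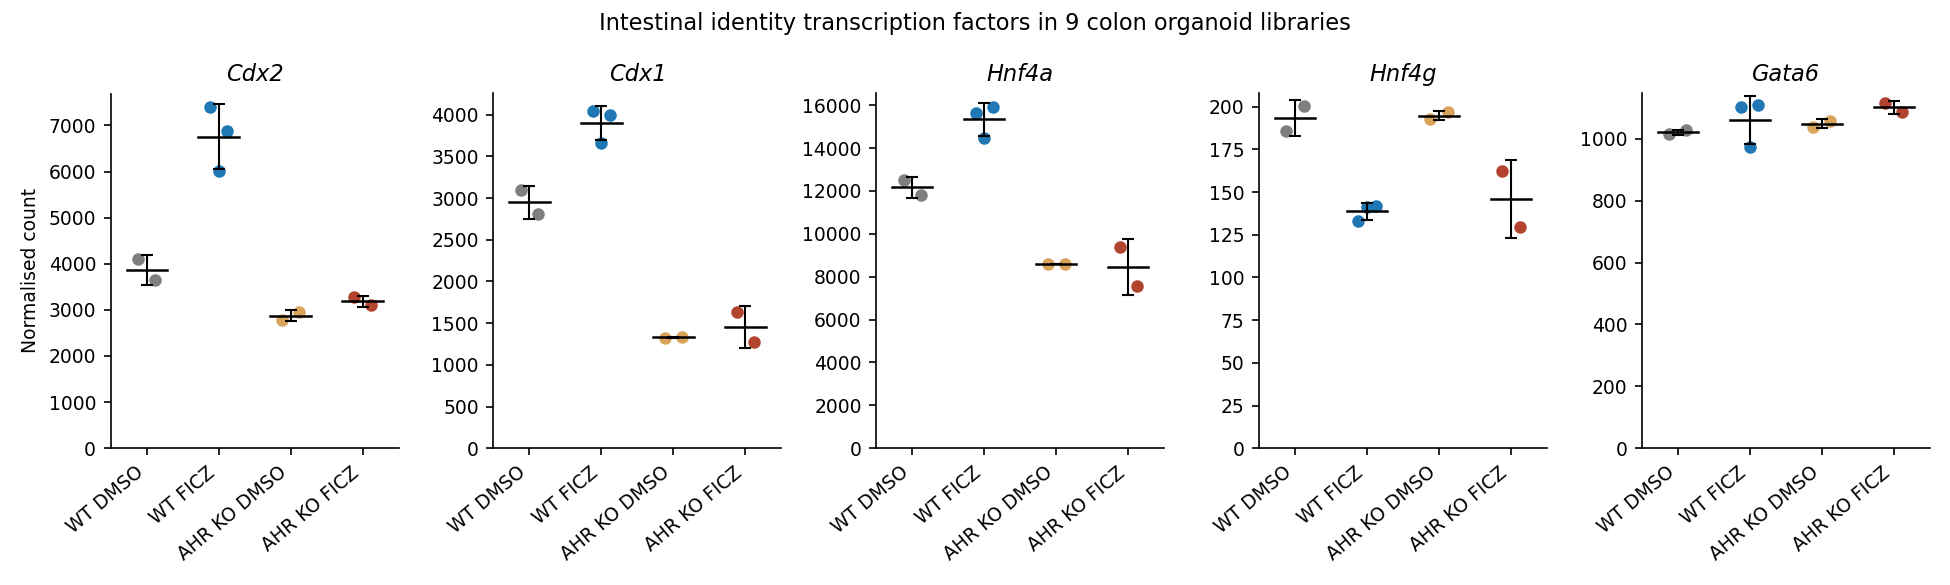
Normalised counts (y axis, from 0, with a separate scale for each gene) of Cdx2, Cdx1, Hnf4a, Hnf4g and Gata6 in the 4 groups. Points are libraries, horizontal lines are group means and bars are 1 SD. Cdx2, Cdx1 and Hnf4a were highest in the 3 WT FICZ libraries and lowest in the AHR KO libraries, Hnf4g was lower in FICZ than in DMSO libraries of both genotypes, and Gata6 stayed between 972 and 1115.

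Cdx2 (ENSMUSG00000029646) lies at chr5:147300805-147307270 on GRCm38, the build of all gene positions given here. Its normalised count was 4099.6 and 3644 in WT DMSO, 7393, 6006 and 6869.8 in WT FICZ, 2788 and 2958 in AHR KO DMSO, and 3269 and 3104 in AHR KO FICZ. All 3 WT FICZ libraries stood above every other library, and no pair of groups overlapped. FICZ raised Cdx2 1.74-fold in WT (log2 0.80, 95% interval 0.61 to 0.99, adjusted p = 0.000271). After removal of a GC trend the change in WT was 0.57 log2, below that interval but still called (adjusted p = 0.000992). In AHR KO the change was 0.15 log2 (-0.06 to 0.36, adjusted p = 0.291) and was not called. It was -0.10 log2 in AHR KO after a trend on GC content was removed (adjusted p = 0.543). The difference between these responses was 0.65 log2 (0.37 to 0.93). It had an unadjusted p of 0.000428 but an adjusted p of 0.0747, so it was not called among all genes. It was called in 3 of 20 alternatives. These were without WT FICZ replicate 2 (0.73 log2, adjusted p = 0.0118) and after removal from each library of a trend on GC content (0.67 log2, adjusted p = 0.0295), alone or with length. The other 17 left it uncalled, among them the replicate number as a block (0.62 log2, adjusted p = 0.158). Its log2 value ranged from 0.57 to 0.74 over the alternatives.

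Cdx2 was lower in AHR KO than in WT organoids with and without ligand. Under DMSO it fell by 0.43 on the log2 scale (0.743-fold, interval -0.64 to -0.22, adjusted p = 0.0191), and under FICZ by 1.08 (0.473-fold, interval -1.27 to -0.89, adjusted p = 2.23e-05). The call under FICZ held in all 21 alternatives. The call under DMSO was lost without WT DMSO replicate 2 (adjusted p = 0.145), AHR KO DMSO replicate 1 (0.129) or AHR KO DMSO replicate 3 (0.0818), each of which left an arm with 1 library.

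Cdx1 (ENSMUSG00000024619, chr18:61018862-61036199) showed the largest genotype difference of the 5. Its normalised count was 3092 and 2808 in WT DMSO, 4039.9, 3662 and 4002 in WT FICZ, 1325 and 1336 in AHR KO DMSO, and 1634 and 1276 in AHR KO FICZ. Every AHR KO library lay below every WT library, and the AHR KO groups overlapped each other. In AHR KO it fell by 1.15 on the log2 scale under DMSO (0.452-fold, interval -1.38 to -0.91, adjusted p = 0.000191) and by 1.43 under FICZ (0.371-fold, interval -1.64 to -1.22, adjusted p = 8.02e-06). Both calls held in all 21 alternatives. Of the 12741 genes tested, 196 had a lower fold change under DMSO and 180 under FICZ.

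FICZ raised Cdx1 in WT by 0.40 log2 (1.32-fold, interval 0.19 to 0.62, adjusted p = 0.0104). This value changed when a trend on base composition was removed. Cdx1 had the highest GC content of the 5 transcripts (62.1%), and after removal of a GC trend its change was -0.039 (adjusted p = 0.825). The call was also lost without WT DMSO replicate 3 (0.33 log2, adjusted p = 0.0890). In AHR KO the change was 0.12 log2 (-0.11 to 0.35, adjusted p = 0.462), and -0.33 after removal of the GC trend (adjusted p = 0.110). The difference between the genotypes was 0.28 log2 (-0.03 to 0.60, adjusted p = 0.720).

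Hnf4a (ENSMUSG00000017950) lies at chr2:163506808-163572910. The count was 12519 and 11829 in WT DMSO, 15654, 14477 and 15895 in WT FICZ, 8594 and 8594 in AHR KO DMSO, and 9382 and 7549.7 in AHR KO FICZ. As for Cdx1, every AHR KO library was below every WT library and the AHR KO groups overlapped. FICZ raised Hnf4a in WT by 0.33 log2 (1.26-fold, interval 0.15 to 0.52, adjusted p = 0.0136). The call was lost after removal of the GC trend (0.22 log2, adjusted p = 0.0894) and without WT DMSO replicate 3 (0.29 log2, adjusted p = 0.0968). In AHR KO the change was -0.03 log2 (-0.23 to 0.17, adjusted p = 0.848), and -0.15 after removal of the GC trend (adjusted p = 0.393). The difference between the genotypes, 0.36 log2 (0.09 to 0.64), had an unadjusted p of 0.0145 and an adjusted p of 0.450.

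In AHR KO organoids Hnf4a fell by 0.50 on the log2 scale under DMSO (0.706-fold, interval -0.70 to -0.30, adjusted p = 0.00759) and by 0.86 under FICZ (0.549-fold, interval -1.05 to -0.68, adjusted p = 6.70e-05). The latter held in all 21 alternatives. The former was lost without WT DMSO replicate 2 (adjusted p = 0.0633), AHR KO DMSO replicate 1 (0.0590) or AHR KO DMSO replicate 3 (0.0639), although its log2 value stayed between -0.54 and -0.46 whichever library was left out. The antisense gene Hnf4aos, which overlaps Hnf4a, did not exceed 0.998 in any library.

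Hnf4g (ENSMUSG00000017688, chr3:3508030-3658052) followed another course than its paralogue. The count was 186 and 201 in WT DMSO, 133, 141 and 142 in WT FICZ, 193 and 197 in AHR KO DMSO, and 162 and 129.7 in AHR KO FICZ. Every FICZ library was below every DMSO library, whatever the genotype. With FICZ in WT, Hnf4g fell by 0.48 on the log2 scale (0.719-fold, interval -0.77 to -0.19, adjusted p = 0.0203). In AHR KO the change was -0.42 log2 (-0.74 to -0.10), with an unadjusted p of 0.0142 and an adjusted p of 0.0630. The difference between the genotypes was -0.05 log2 (-0.48 to 0.38, adjusted p = 0.981), an interval that leaves room for a difference of either sign.

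The FICZ call on Hnf4g in WT held in 16 of 21 alternatives, and its direction in all 21. It was lost after removal of the GC trend (-0.31 log2, adjusted p = 0.127; the transcript has the lowest GC content of the 5, 41.5%), and without WT DMSO replicate 2 (adjusted p = 0.0683), WT DMSO replicate 3 (0.124) or WT FICZ replicate 1 (0.0556). In AHR KO it became a call under quantile normalization (adjusted p = 0.0397) and without AHR KO FICZ replicate 1 (0.0449), whereas it moved to -0.24 log2 after removal of the GC trend (adjusted p = 0.371) and to -0.26 without AHR KO FICZ replicate 3 (0.312). Between genotypes, Hnf4g changed by 0.01 log2 under DMSO (-0.31 to 0.33, adjusted p = 0.971) and by 0.07 under FICZ (-0.22 to 0.36, adjusted p = 0.773).

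Gata6 (ENSMUSG00000005836, chr18:11052064-11085635) was the flattest of the 5. The count was 1015 and 1027 in WT DMSO, 1103, 972 and 1108 in WT FICZ, 1038 and 1059 in AHR KO DMSO, and 1115 and 1087 in AHR KO FICZ. The highest and the lowest of the 4 group means, 1101 and 1021, were separated by less than the range of the WT FICZ libraries alone. FICZ gave a log2 change of 0.05 in WT (-0.10 to 0.21, adjusted p = 0.610) and 0.07 in AHR KO (-0.10 to 0.24, adjusted p = 0.558). After removal of the GC trend it gave -0.10 in WT (adjusted p = 0.281) and -0.10 in AHR KO (adjusted p = 0.451). AHR KO against WT gave 0.04 under DMSO (-0.13 to 0.21, adjusted p = 0.814) and 0.06 under FICZ (-0.10 to 0.21, adjusted p = 0.623). Gata6 was called in none of the alternatives. The overlapping opposite-strand transcript 1010001N08Rik did not exceed 9.74. Its relatives Gata4 and Gata5 did not exceed 14.3 and 12.1 in any library and were not tested.

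**Figure D2:**
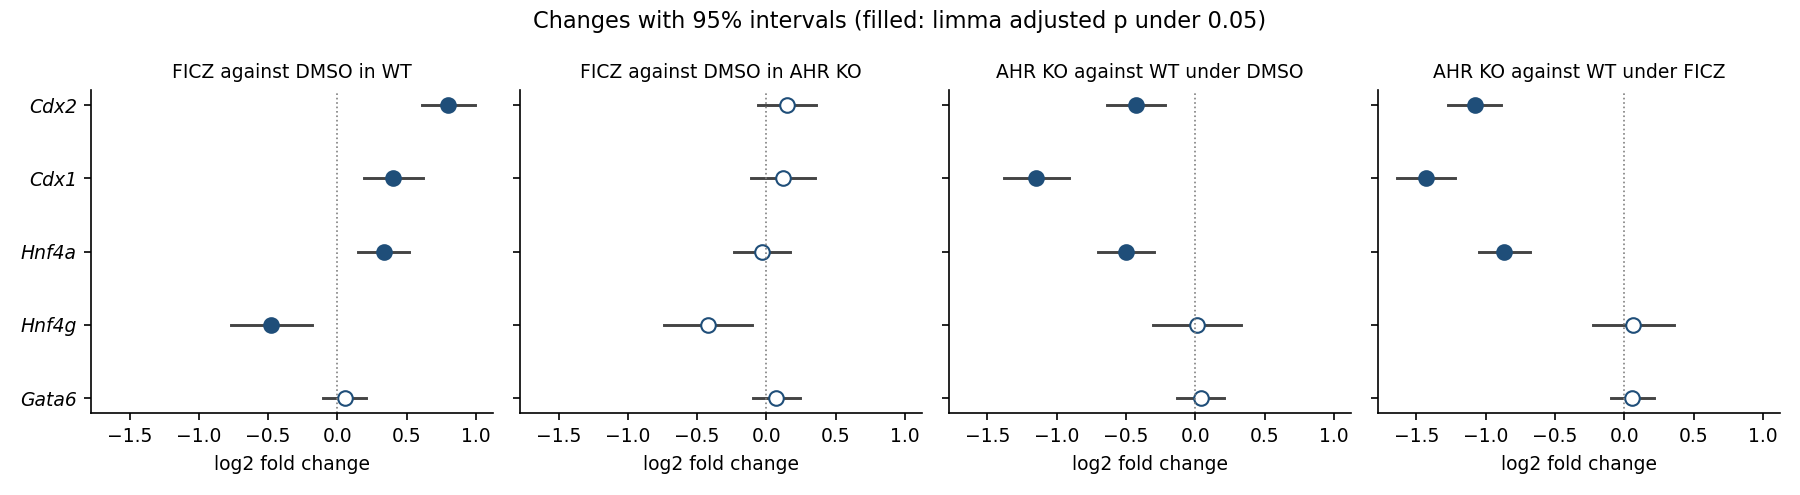
log2 fold changes (x axis) of the 5 genes in 4 comparisons, with 95% intervals from limma; filled points passed an adjusted p of 0.05. For FICZ in WT, Cdx2, Cdx1, Hnf4a and Hnf4g were called, and only Cdx2 of these was still called after removal of a GC trend. The AHR KO libraries had lower Cdx2, Cdx1 and Hnf4a under both DMSO and FICZ. The intervals of Gata6 included 0 throughout.

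Set beside all genes, 4 of the 5 members were called for FICZ in WT, 3 higher and 1 lower, in a comparison where 30.8% of all genes tested were called (15.1% higher and 15.7% lower). Only Cdx2 of the 4 was still called after removal of the GC trend or without WT DMSO replicate 3. Fewer of all genes were called there as well, 2380 in place of 3928 after GC removal. For FICZ in AHR KO, limma called 0 of the 5, with 1 at an unadjusted p under 0.05, where 19.7% of all genes were called (10.2% higher and 9.48% lower). For the difference between the responses, 0 of the 5 were called by limma, with 2 at an unadjusted p under 0.05, where only 0.447% of all genes were called (0.377% higher and 0.0706% lower in WT than in AHR KO). For AHR KO against WT, 3 of the 5 were called, all lower, under DMSO, where 9.05% of genes were called (4.21% higher and 4.83% lower). Only Cdx1 of the 3 was still called without WT DMSO replicate 2 or either AHR KO DMSO library, where fewer of all genes were called as well. The same count, 3 of 5 lower, was obtained under FICZ, where 20.0% were called (9.48% higher and 10.5% lower). The comparisons share libraries, so these counts are not independent of each other.

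**Figure D3:**
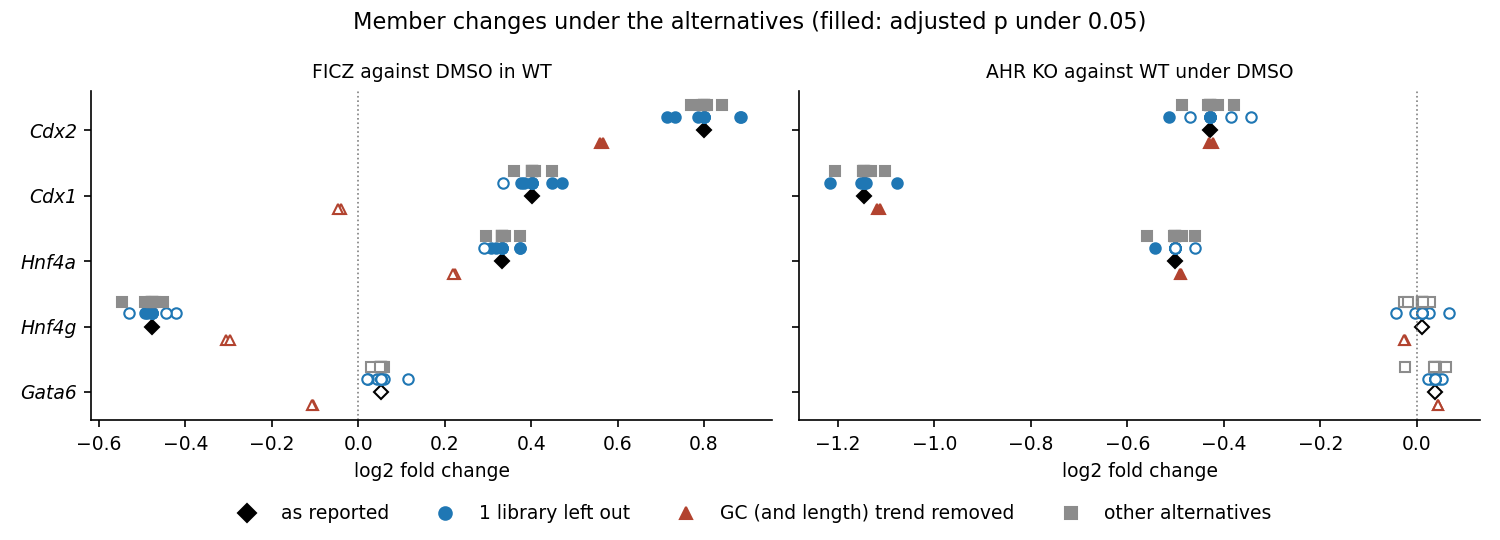
log2 fold changes (x axis) of the 5 genes as reported (diamonds) and under each alternative, for FICZ against DMSO in WT and AHR KO against WT under DMSO; filled symbols passed an adjusted p of 0.05. Removal of a GC trend (triangles) moved Cdx1 in WT from 0.40 to -0.039 and Cdx2 in WT from 0.80 to 0.57. It left the genotype differences of Cdx1, Cdx2 and Hnf4a called.

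The balance within each pair of paralogues was read as a ratio inside each library, per kb of exonic length and without a test. Cdx2 to Cdx1 was 1.03 and 1.004 in WT DMSO, 1.42, 1.27 and 1.33 in WT FICZ, 1.63 and 1.71 in AHR KO DMSO, and 1.55 and 1.88 in AHR KO FICZ. The ratio was lowest in WT DMSO, higher in WT FICZ, and highest in the AHR KO libraries, where Cdx1 was lower by more than Cdx2. In WT the FICZ change was 0.80 log2 for Cdx2 and 0.40 for Cdx1, and 0.57 and -0.039 after removal of a GC trend. Hnf4a to Hnf4g was 36.7 and 32.1 in WT DMSO, 64.2, 55.9 and 61.0 in WT FICZ, 24.3 and 23.8 in AHR KO DMSO, and 31.5 and 31.7 in AHR KO FICZ. The 3 WT FICZ libraries were thus apart from the rest in the weight of Hnf4a over Hnf4g. No GC trend was removed from either ratio. GC content was 57.5% for Cdx2 and 62.1% for Cdx1, and 53.7% for Hnf4a and 41.5% for Hnf4g. The part of a GC trend in these ratios was not tested.

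**Figure D4:**
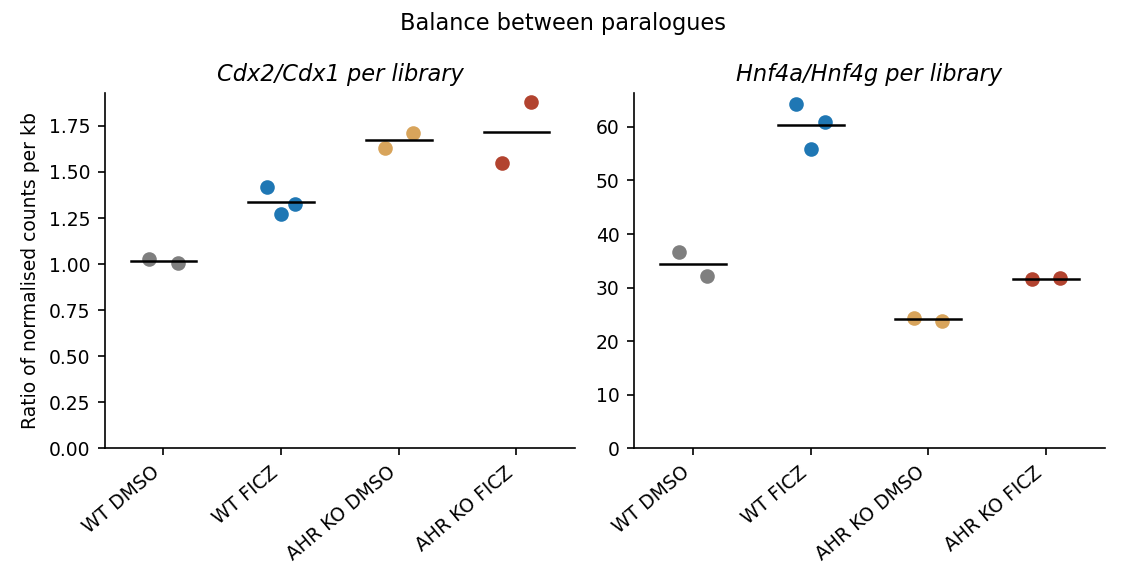
Ratio of normalised counts per kb (y axis, from 0) of Cdx2 to Cdx1 and of Hnf4a to Hnf4g within each library; points are libraries and lines are group means. The Cdx2 to Cdx1 ratio was near 1 in WT DMSO and 1.55 to 1.88 in AHR KO libraries. The Hnf4a to Hnf4g ratio was 55.9 to 64.2 in WT FICZ against 23.8 to 36.7 elsewhere. No GC trend was removed from the ratios.

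Over the 9 libraries Cdx1 and Hnf4a followed each other most closely of the 10 member pairs (Pearson r = 0.988 on log2 values), followed by Cdx2 and Hnf4a (0.937) and Cdx1 and Cdx2 (0.916). Hnf4g ran opposite to Cdx2 (-0.609), and Gata6 had no r above 0.0518 or below -0.355 with the others. These values describe 9 libraries in 4 groups and share the group differences given above. Among 10586 other protein-coding genes with a mean of 50 or more, those most like Cdx1 were Ugt1a7c (r = 0.995), Nlrp6 (0.992) and Ppp1r14d (0.991). Ugt1a7c encodes a glucuronosyltransferase of a locus whose members share exons, so reads may be split among them. Its mean was 4429.5 in WT DMSO, 7961 in WT FICZ, 886 in AHR KO DMSO and 980 in AHR KO FICZ. Those most like Cdx2 were Plekha6 (0.996), Prkab1 (0.991) and Clk3 (0.990), and those most like Hnf4a were Mfsd6 (0.994), the chemokine gene Ccl28 (0.991) and again Ppp1r14d (0.990). For Hnf4g they were Orc3 (0.982), Utp6 (0.977) and Opa1 (0.976), and for Gata6 only weaker ones were found, Bmyc (0.902), Atxn7l2 (0.901) and Hemk1 (0.897).

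Other transcription factors of the intestinal epithelium were examined as a list of 24, of which 19 were tested (the plot of other intestinal transcription factors). Cdx4, the remaining caudal-type gene, was at 0 in all libraries. In WT, FICZ raised 5 of the 19 and lowered 2, with a median of 0.17 log2 against -0.01 over all genes, of which 15.1% were called higher and 15.7% lower. The highest were Tcf7l2, the main Wnt effector of the TCF family in gut (log2 0.78, adjusted p = 0.00107), Rxra (0.49, adjusted p = 0.00172) and Elf3, an ETS factor of epithelia (0.27, adjusted p = 0.0209). After removal of the GC trend the number called fell from 7 to 4, and that over all genes from 3928 to 2380. Both numbers also fell without WT DMSO replicate 3. After GC removal Elf3 was no longer called (adjusted p = 0.612), and without that library, at 0.21 log2, it was not called either. The ETS factor Ehf was lower with FICZ in WT (-0.50, adjusted p = 0.000319) and in AHR KO (-0.40, adjusted p = 0.00324), where it was the only 1 of the 19 called, against 9.48% of all genes lower and 10.2% higher. The latter call was lost after removal of the GC trend (adjusted p = 0.0557). The count of 1 rose to 3 without WT FICZ replicate 2 and to 2 without either AHR KO FICZ library, under quantile normalization or with a mean of 100 or more.

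Rxra encodes a retinoid X receptor, the partner of many nuclear receptors. It read 721 and 703 in WT DMSO, 1087, 928 and 999 in WT FICZ, 661 and 701 in AHR KO DMSO, and 775 and 839 in AHR KO FICZ, so that the WT FICZ libraries were the highest. FICZ raised Rxra in WT by 0.49 log2 (0.31 to 0.67, adjusted p = 0.00172), against 0.24 (0.05 to 0.44, adjusted p = 0.0773) in AHR KO, where it became a call without WT FICZ replicate 2 (adjusted p = 0.0491). The difference of 0.25 log2 was not called (adjusted p = 0.709). Sox9, a factor of crypt progenitors, moved the other way from Cdx2. It read 3696 and 3551 in WT DMSO, 2186, 1665 and 1951 in WT FICZ, 3985 and 3877 in AHR KO DMSO, and 4149 and 4279 in AHR KO FICZ. With FICZ in WT it fell by 0.91 on the log2 scale (interval -1.12 to -0.71, adjusted p = 0.000234), whereas in AHR KO its log2 change was 0.10 (-0.13 to 0.33, adjusted p = 0.529).

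Under DMSO, AHR KO organoids had 7 of the 19 factors lower and 0 higher (median -0.28 log2 against -0.01 over all genes, of which 4.83% were called lower and 4.21% higher). With no filter on low values the number called fell from 7 to 4, and that over all genes from 1153 to 853. Both numbers also fell without either WT DMSO or either AHR KO DMSO library, each of which left an arm with 1 library. Vdr, the vitamin D receptor, was lowest, with means of 804 ± 12.7 (SD, n = 2) in WT DMSO and 265 ± 5.75 (SD, n = 2) in AHR KO DMSO (-1.60 log2, adjusted p = 0.000273). Tcf7l2 followed (-0.56, adjusted p = 0.0202), a call lost when any 1 of the 4 DMSO libraries was left out (adjusted p 0.0747 to 0.151). Pparg, a nuclear receptor of lipid metabolism, was at -0.56 log2 (adjusted p = 0.0308), a call lost with no filter on low values (adjusted p = 0.0549) and without WT DMSO replicate 2 or either AHR KO DMSO library (0.0672 to 0.221). Under FICZ, 11 of the 19 were lower and 1 higher (median -0.39 against -0.0040 over all genes, of which 10.5% were called lower and 9.48% higher). Vdr (-1.74, adjusted p = 2.76e-05) and Tcf7l2 (-1.32, adjusted p = 3.91e-05) were again the lowest, followed by Nr5a2, the nuclear receptor LRH-1, with 198 ± 4.61 (SD, n = 3) in WT FICZ and 94.3 ± 18.6 (SD, n = 2) in AHR KO FICZ (-1.08, adjusted p = 0.000600). Sox9 was the 1 that was higher (1.13, adjusted p = 2.76e-05). Rxra was at -0.31 log2 (adjusted p = 0.0201), a call lost in the fit to only the groups compared and without WT FICZ replicate 1, WT FICZ replicate 3 or either AHR KO FICZ library (adjusted p up to 0.127).

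**Figure D5:**
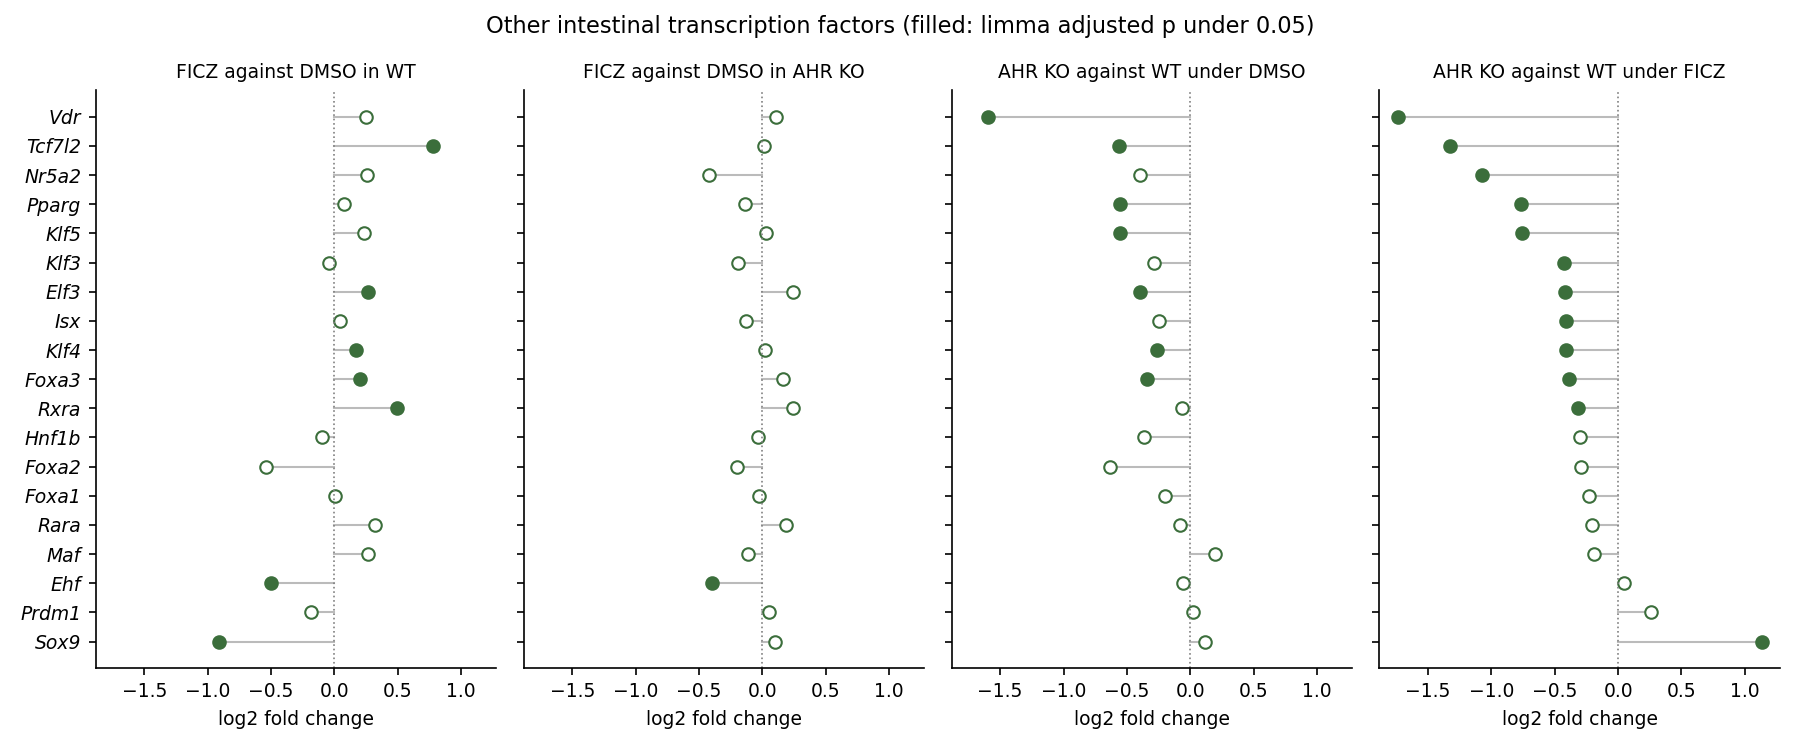
log2 fold changes (x axis) of the 19 other intestinal transcription factors tested, in 4 comparisons, ordered by the change in AHR KO against WT under FICZ; filled points passed an adjusted p of 0.05. In WT, FICZ raised 5 and lowered 2, in AHR KO 1 (Ehf) was called, a count that ranged from 0 to 3 over the alternatives, and under FICZ 11 were lower and Sox9 alone was higher in AHR KO.

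Of 16 genes known as CDX targets in gut, 14 were tested. The disaccharidase genes Sis and Lct did not exceed 0.653 and 20.9 and were left out by the filter. In WT, FICZ raised 1 of the 14 and lowered 4 (median 0.08 log2 against -0.01 over all genes, of which 15.1% were called higher and 15.7% lower). The number called fell from 5 to 2 after removal of the GC trend, where that over all genes fell from 3928 to 2380. It fell to 3 in the fit to only the groups compared and without WT FICZ replicate 3, with 3444 and 2927 called over all genes. Both numbers also fell without either WT DMSO or either AHR KO DMSO library. The 1 raised was Lgals4, a galectin (0.24, adjusted p = 0.0305), a call lost in 10 of 21 alternatives, among them the removal of either WT DMSO library (adjusted p 0.0961 and 0.169). Among those lowered were Cftr, the chloride channel (-0.75, adjusted p = 0.000271), and Cldn2, a claudin of leaky tight junctions (-0.60, adjusted p = 0.0180, but 0.0588 in the fit to only the groups compared and 0.144 without WT DMSO replicate 3). In AHR KO limma called 1, Cftr, lower (-0.46, adjusted p = 0.00781), a call lost after removal of the GC trend (adjusted p = 0.0780) and without AHR KO DMSO replicate 1 (0.0842). Of all genes 9.48% were lower in that comparison, and the count of 1 rose to 3 without AHR KO FICZ replicate 1 and to 2 without WT FICZ replicate 2, with a pseudocount of 0.1, under quantile normalization, under robust eBayes and in the fit to only the groups compared. For the difference between the responses limma called 0 of the 14, with 3 at an unadjusted p under 0.05, where 0.447% of all genes were called.

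The genotype difference in the CDX target list ran in both directions. Under DMSO 4 of the 14 were lower and 1 higher in AHR KO (median -0.57 against -0.01 over all genes, of which 4.83% were called lower and 4.21% higher), and under FICZ 8 were lower and 3 higher (median -0.52 against -0.0040, with 10.5% of all genes lower and 9.48% higher). Under DMSO the number called moved from 5 to 3 with no filter on low values and to 9 in the fit to only the groups compared. Over all genes 853 and 1624 were called there, against 1153 in the main fit. Both numbers fell without any 1 of the 4 DMSO libraries. Cldn2 was higher, with 214 ± 31.6 (SD, n = 2) in WT DMSO and 1263 ± 138 (SD, n = 2) in AHR KO DMSO (2.56 log2, adjusted p = 5.20e-05), and with 142 ± 29.7 (SD, n = 3) in WT FICZ and 1217 ± 22.3 (SD, n = 2) in AHR KO FICZ (3.11 log2, adjusted p = 1.67e-06). Among those lower under DMSO were Abcb1a, a drug efflux pump (-0.82, adjusted p = 0.000193), and Krt20, a keratin of mature surface cells (-0.72, adjusted p = 0.0281, 0.0506 with no filter on low values and 0.0590 to 0.187 without any 1 of the 4 DMSO libraries). Under FICZ the lowest were Slc26a3, the chloride-bicarbonate exchanger of colonocytes (-2.61, adjusted p = 0.000814), Guca2a, which encodes guanylin (-1.78, adjusted p = 0.00450), and the protease gene Mep1a (-1.52, adjusted p = 0.0136, but -0.74 and 0.0530 without AHR KO FICZ replicate 3). Slc26a3 and Guca2a had means of 31.1 and 119.9 in WT FICZ, so that these folds rest on low counts.

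Of 19 genes known as HNF4 targets, including brush border genes, 9 were tested. The other 10 included Apoa1, Apoa4, Apoc3, Fabp1 and Fabp2, lipid-handling genes of which none exceeded 7.91. In WT, FICZ raised 1 of the 9 (median 0.08 log2 against -0.01 over all genes, of which 15.1% were called higher), Myo7b, a brush border myosin (0.18, adjusted p = 0.0216, and 0.0550 to 0.157 without either WT DMSO library or WT FICZ replicate 1 or 3), and after removal of the GC trend 0 of the 9 were called (Myo7b adjusted p = 0.857). The number called in WT rose to 2 without WT FICZ replicate 2. In AHR KO, FICZ raised 1 of the 9, where 10.2% of all genes were higher. That count was 2 under quantile normalization and also rose without AHR KO FICZ replicate 3. The 1 was again Myo7b (0.25, adjusted p = 0.0129), which was not called after removal of the GC trend (adjusted p = 0.535) or without either AHR KO DMSO library or AHR KO FICZ replicate 1 (0.0507 to 0.0889). For the difference between the responses limma called 0 of the 9, with 0 at an unadjusted p under 0.05, where 0.447% of all genes were called. AHR KO organoids had 5 of the 9 lower and 0 higher under DMSO (median -0.31 against -0.01 over all genes, of which 4.83% were called lower), and 5 lower and 0 higher under FICZ (median -0.20 against -0.0040, with 10.5% of all genes lower). The number called under DMSO fell without either WT DMSO or either AHR KO DMSO library, as did that over all genes. The lowest were Slc5a1, the sodium-glucose transporter SGLT1, with 819 ± 40.4 (SD, n = 2) in WT DMSO and 253 ± 5.76 (SD, n = 2) in AHR KO DMSO (-1.69, adjusted p = 0.000754), Myo1a, another brush border myosin (-1.26, adjusted p = 0.00111), and Cdhr5, an intermicrovillar protocadherin (-0.60, adjusted p = 0.00777, and 0.0569 to 0.0629 without WT DMSO replicate 2 or either AHR KO DMSO library). Under FICZ the same 3 genes were at -1.95, -1.22 and -0.71 log2.

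Genes of the stomach were examined because loss of CDX2 is known to bring gastric traits to gut epithelium. Of 19 listed, only Krt7 and Vsig1 were tested. Sox2, Gkn1, Gkn2, Tff1, Tff2, Pgc, Barx1, Gif, Atp4b and Nkx6-3 were at 0 in all libraries. Krt7, a keratin of simple epithelia that is not restricted to stomach, was higher in AHR KO by 0.72 log2 under DMSO (37539 ± 1879 against 61691 ± 3146, SD, n = 2 each, adjusted p = 0.000754) and by 0.60 under FICZ (adjusted p = 0.000410). With FICZ, Krt7 was lower in WT (-0.24 log2, adjusted p = 0.0353), a call lost under quantile normalization (adjusted p = 0.173), with no filter on low values (0.0714) and without any 1 of the 5 WT libraries (0.0587 to 0.227). In AHR KO it was at -0.36 log2 (adjusted p = 0.0156, and 0.0671 to 0.0952 without either AHR KO DMSO library or AHR KO FICZ replicate 1). Vsig1, an adhesion molecule of gastric epithelium, was called in none of the comparisons. Its mean was 90.4 ± 15.5 (SD, n = 2) in WT DMSO, 54.9 ± 20.0 (SD, n = 3) in WT FICZ, 39.4 ± 3.84 (SD, n = 2) in AHR KO DMSO and 27.4 ± 15.3 (SD, n = 2) in AHR KO FICZ. The log2 difference of Vsig1 between AHR KO and WT was -1.17 in DMSO libraries (adjusted p = 0.129) and -1.01 in FICZ libraries (adjusted p = 0.0987), opposite in sign to that of Krt7. It became a call under DMSO in the fit to only the groups compared, and under FICZ without WT FICZ replicate 1 or AHR KO FICZ replicate 1. Of this list, 17 genes stayed under the expression filter, and the highest value among them was 19.9, of Atp4a.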

How the data were processed

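RNA-seq libraries (stranded, depleted of ribosomal RNA) came from 9 organoid samples. The study's methods state that the organoids of each genotype were generated from biological replicates. Where lines or animals are shared, p-values measure only the spread between these libraries. The authors deposited 1 table of normalised read counts (a signal of 0 or more, mostly fractional). The submitters' processing notes name STAR (2.5.2a), RSEM (1.2.31), DESeq2 (1.16.1) and GRCm38, whereas the methods name another counting program, and which scaling made the deposited signal is not given in the sources used here. Signal summed to 23177058 to 25033827 per library. Only 51.7 to 64.5% of low values lay within 2% of whole steps, so reads were not recovered, raw depth is unknown and no count model was applied.

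Values were transformed as log2(value + 1), and fold changes on this scale understate those of low genes. Genes with a mean of 10 or more (12741) were fitted with limma (3.58.1, R 4.3.3; lmFit and eBayes with trend) over 9 libraries with 4 groups as coefficients and 5 contrasts, two-sided, with Benjamini-Hochberg adjustment over all genes tested; calls had an adjusted p under 0.05. The fit was tested on simulated data. Annotation was GENCODE M21 on GRCm38 (99.3% of identifiers matched), and promoter sequences were from RefSeq (GRCm38.p6). Promoter entries were matched for Cdx2 and Hnf4a; Cdx1, Hnf4g and Gata6 are named only.

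The members and lists were chosen with earlier results of these data known, and some genes first listed are not reported here. Named genes were the members, Ahr, Cyp1a1, Cyp1b1, Sox9 and Rxra, up to 3 called genes at either end of each list per contrast, the 3 protein-coding genes most like each member, and neighbours within 5 kb; listed genes at 0 or under the filter are named beside their counts. Alternatives were the pseudocount (0.1, 10), the filter (none, 100), TMM scaling, quantile normalization, robust eBayes, only the groups compared, replicate blocks, GC and length trends (splines, 5 degrees of freedom) and leaving out each library. No batch was given in the labels, and no value was taken from the paper.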

Additional observations from a re-analysis of the deposited data

Results flagged for a closer look

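Among the genes named, Sox9 differed between the genotypes in its FICZ response by the interaction test in limma. The response in WT minus that in AHR KO was -1.01 log2 (adjusted p = 0.0113). This call was lost without WT DMSO replicate 2, either AHR KO DMSO library or AHR KO FICZ replicate 3 (adjusted p 0.0544 to 0.0870), although the difference itself stayed between -1.03 and -0.99 log2. Groups of 2 and 3 libraries were too small for a search for single outlying libraries.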

How the results depend on the processing

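Over 21 alternatives and 5 contrasts the 5 members gave 520 values, of which 474 kept their direction and their side of the threshold; the fit to only the groups compared gives no interaction. The cause of each shift below was not tested. Removal of a GC trend lowered the number of genes called for FICZ from 3928 to 2380 in WT and from 2509 to 660 in AHR KO (2313 and 683 with length also removed). Under GC removal, and then with length, FICZ in WT gave Cdx1 -0.039 and -0.046, Cdx2 0.57 and 0.56, and Gata6 -0.10 and -0.11. Hnf4a was at 0.22 and 0.22 there, and Hnf4g at -0.31 and -0.30. FICZ in AHR KO gave Cdx1 -0.33 and -0.32, Cdx2 -0.10 and -0.10, Hnf4a -0.15 and -0.16, and Gata6 -0.10 and -0.12. The interaction gave Cdx2 0.67 and 0.66, both called, and Gata6 0.0081 with length removed. AHR KO against WT under DMSO gave Hnf4g -0.025 and -0.0265. Quantile normalization gave Hnf4a 0.041 and Hnf4g -0.49 for FICZ in AHR KO, and Hnf4g -0.026 for AHR KO against WT under DMSO. With length removed, Rxra in AHR KO became -0.0070 and Myo7b in WT -0.021.

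Deviations of libraries with like replicate numbers were only weakly correlated (0.0346 to 0.0498), and the main fit held no block. With so few libraries per group, such correlations cannot show whether lines are shared. The replicate number as a block gave 3412 genes called for FICZ in WT, 2237 in AHR KO, 39 for the interaction, and 1052 and 2460 for AHR KO against WT under DMSO and FICZ. It changed no call on a member, but Lgals4 (adjusted p = 0.0574), Myo7b (0.0600) and Krt7 (0.0786) for FICZ in WT and Krt20 (0.0768) for AHR KO against WT under DMSO were no longer called. It turned Hnf4g (-0.018) and Gata6 (-0.025) for AHR KO against WT under DMSO. The line as a random effect gave 4104 for FICZ in WT. For FICZ in AHR KO, either block called 2 of the 19 other intestinal transcription factors in place of 1. The line as a random effect also called 2 of the 14 CDX targets there, in place of 1. For FICZ in WT, the replicate number as a block called 3 of the CDX targets in place of 5.

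Leaving out each library gave 1990 to 4133 genes called for FICZ in WT, 420 to 2961 for FICZ in AHR KO, 23 to 78 for the interaction, 389 to 1465 for AHR KO against WT under DMSO and 1312 to 3084 under FICZ. A group cut to 1 library was assumed to vary like the others. For FICZ in WT the log2 range was 0.33 to 0.47 for Cdx1, 0.29 to 0.37 for Hnf4a and -0.53 to -0.42 for Hnf4g. For FICZ in AHR KO it was -0.060 to 0.30 for Cdx1, -0.19 to 0.13 for Hnf4a and -0.58 to -0.26 for Hnf4g. For the interaction it was 0.11 to 0.46 for Cdx1, 0.57 to 0.74 for Cdx2, 0.21 to 0.52 for Hnf4a, -0.21 to 0.11 for Hnf4g and -0.051 to 0.043 for Gata6. For AHR KO against WT under DMSO it was -0.51 to -0.34 for Cdx2, -0.54 to -0.46 for Hnf4a and -0.043 to 0.066 for Hnf4g, and under FICZ -0.094 to 0.22 for Hnf4g and -0.0058 to 0.088 for Gata6.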
